A study of Caenorhabditis elegans with 43 samples.

Results

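The 2816 piRNA loci described here are those that the annotation used for the count table places on chromosome IV of *Caenorhabditis elegans* with a start between 4.5 and 7.0 Mb, the smaller of the 2 piRNA clusters of that chromosome (genome build WBcel235). They were chosen by position alone, and they are 19.1% of the 14714 piRNA loci of chromosome IV, of which 11388 lie in the larger cluster further right. Small RNA was sequenced from whole hermaphrodites grown at 20°C in 11 libraries of 4 groups. WT spe. was N2 at 48 hr (L4, when the germline makes sperm; 3 libraries), and WT oog. was N2 at 72 hr (gravid adults making oocytes; 3 libraries). *snpc-1.3(-)* spe. was *snpc-1.3(xk27)* at 48 hr (2 libraries), an allele with a stop codon engineered early in the coding sequence. *snpc-1.3(2xtbs)* oog. was *snpc-1.3(xk36)* at 72 hr (3 libraries), in which 2 TRA-1 binding sites of the *snpc-1.3* promoter are mutated, and whose genotype label also carries a 3xFlag tag. The libraries of a time point shared a flow cell, so stage and flow cell cannot be told apart. The study calls its small RNA libraries biological replicates and the sources used here do not say how they were separated, so p-values measure the spread between these libraries.

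piRNAs are small RNAs of the germline that bind the Argonaute PRG-1 and recognise foreign and self transcripts by imperfect pairing. In *C. elegans* each is a transcription unit of its own, made by RNA polymerase II from a short promoter. Most of these promoters hold an upstream element, the Ruby motif, whose core is GTTTCA after 2 variable bases, and SNPC-4, PRDE-1 and TOFU proteins act there. SNPC-1.3 is a paralog of a subunit of SNAPc, the complex that directs snRNA transcription, and works with SNPC-4 on piRNAs of the male germline. TRA-1 is the zinc finger protein that represses male genes in hermaphrodites. A cytosine as the first base of the motif has been linked to male piRNAs.

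The core GTTTCA was searched for in the 60 nt before each piRNA, on the strand of the piRNA only, and was found upstream of 1920 members (68.2%), against 64.6% of all chromosome IV piRNAs. With 1 mismatch allowed it was found upstream of 94.6% of the members and 94.4% of all. The start of the core lay a median of 44 nt before the first base of the piRNA (quartiles 43 and 45). The first base of the 8-nt motif was C in 1471 members (52.2%), A in 270 (9.59%), T in 128 (4.55%) and G in 51 (1.81%). The sequences below, from the motif to the last base of the piRNA, belong to loci that the results turn on and stand for each first base. Capitals mark the motif at the 5′ end and the 21 nt of the piRNA at the 3′ end, and each is read 5′ to 3′ on the strand of the piRNA in the WBcel235 reference.
21ur-6053, first base C, chrIV:6138504-6138571, plus strand: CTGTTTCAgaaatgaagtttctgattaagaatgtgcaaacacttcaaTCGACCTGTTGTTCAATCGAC
21ur-7352, first base C, chrIV:6648248-6648315, plus strand: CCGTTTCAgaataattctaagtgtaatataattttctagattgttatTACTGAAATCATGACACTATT
21ur-7761, first base C, chrIV:6802447-6802512, plus strand: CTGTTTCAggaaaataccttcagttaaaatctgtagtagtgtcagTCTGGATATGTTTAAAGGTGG
21ur-526, first base A, chrIV:6489672-6489737, plus strand: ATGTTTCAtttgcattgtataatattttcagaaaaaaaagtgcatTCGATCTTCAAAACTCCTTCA
21ur-5904, first base T, chrIV:6191472-6191537, minus strand: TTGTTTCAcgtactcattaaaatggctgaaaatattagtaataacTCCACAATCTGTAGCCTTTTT
21ur-5721, first base G, chrIV:6304499-6304569, plus strand: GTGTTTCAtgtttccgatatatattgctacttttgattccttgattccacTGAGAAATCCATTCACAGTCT
21ur-6424, first base G, chrIV:6305406-6305472, plus strand: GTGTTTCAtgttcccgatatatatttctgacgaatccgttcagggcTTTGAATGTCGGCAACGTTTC
21ur-1430, first base A, chrIV:5566369-5566448, plus strand: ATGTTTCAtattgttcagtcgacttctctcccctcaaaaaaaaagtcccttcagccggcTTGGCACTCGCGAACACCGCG

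The members began between 4630304 and 6998252, with 1356 on the plus strand and 1460 on the minus strand. All were 21 nt long, and the first base of the piRNA was T in 95.6% of them and in 96.4% of the other chromosome IV piRNAs. Of the members, 1300 (46.2%) were intergenic, 1323 (47%) lay in introns and 193 (6.85%) touched an exon of another gene, while 65.8%, 29.8% and 4.41% of the rest of chromosome IV did. The members thus lay inside other genes more often than the rest, and the intronic members lay on the strand of the host gene in 617 cases and opposite to it in 706. A read was counted at every feature it overlapped. As 1000 members overlap another piRNA and 1163 had the same counts as another locus in every library, some loci cannot be told apart. The 1815 members with a sequence found once in the genome and no overlap with another piRNA are called unique below.

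Libraries held between 4336397 and 22346249 counts on annotated features, of which 466066 to 3061763 fell on chromosome IV piRNAs and 41568 to 198433 on members. Reads on *snpc-1.3* itself numbered 0 to 6 per library, too few to check the genotype labels. Members with a count numbered 1367 and 1481 in the *snpc-1.3(-)* libraries and 1703 to 2093 in the other 9, and 2581 members had a count in at least 1 library. Levels are given as CPM, the usual counts-per-million scale relative to chromosome IV piRNA counts. Values of single libraries and single groups were scaled by TMM (edgeR's trimmed mean of M-values). Averages over all libraries or all groups, and the medians, cut-offs, rankings and shares of level made from them, were not scaled by TMM. In whole worms, fewer germ cells of a kind and less RNA per cell cannot be told apart.

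The members were low in level and unequal. The median member had a mean of 2.61 CPM, against 6.83 CPM in the rest of chromosome IV. Only 883 members had a mean of at least 10 CPM and 9 exceeded 1000 CPM. By CPM averaged over the 4 groups, the 65 highest members held 50% of the summed member level. The top 5 held 18.6% and the first, 21ur-1430, 6.51%.

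21ur-1430 (chrIV:5566428-5566448) lies inside *mir-790*, a microRNA gene annotated on the same strand from 5566422 to 5566491, and was the only member in a microRNA gene. Its 45195 counts over all libraries stand against 45693 for *mir-790*, or 96.3 to 99.5% of that gene's counts per library. Reads of the piRNA and of the microRNA can thus not be told apart in this table. Its core also starts 57 nt before the piRNA, further than the median of 44 nt. Where results rest on this locus, they are given without it and the other chromosome IV piRNAs inside microRNA genes, 6 in all, an alternative chosen after seeing the data.

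The next loci by level were lower in WT spe. than in WT oog., by calls that depend on the scaling. 21ur-5721 and 21ur-6424 start 903 nt apart on the plus strand, and 24 of the first 25 bases from the motif on are the same in both, while the piRNAs themselves share the base at 8 of 21 positions. 21ur-5721 was at 2390, 2740 and 2040 CPM in WT spe., at 4900 and 4780 CPM in *snpc-1.3(-)*, at 5840, 5360 and 3710 CPM in WT oog., and 426, 2280 and 6310 CPM in *snpc-1.3(2xtbs)*. 21ur-6424 was at 1750, 1700 and 1020 CPM in WT spe., at 2300 and 2990 CPM in *snpc-1.3(-)*, at 2250, 2870 and 3270 CPM in WT oog., and 852, 2280 and 3430 CPM in *snpc-1.3(2xtbs)*. In both, WT spe. lay below WT oog. and below *snpc-1.3(-)* without overlap, and the *snpc-1.3(2xtbs)* libraries were spread widely, with replicate 1 lowest in each. The log2 fold change between the stages was −1.06 for 21ur-5721 (adjusted p = 0.00013) and −0.91 for 21ur-6424 (adjusted p = 0.00079) in the edgeR test described below. With DESeq2's median-ratio factors these were −0.30 and −0.16, and those of the mutant 0.35 and 0.15 in place of 1.02 and 0.82, none of them called. 21ur-2966 and 21ur-3128, which start 3 nt apart, had identical counts (999 ± 186 CPM in WT spe., 1770 ± 224 CPM in WT oog., SD, n = 3 each) and count as 1 signal. Their stage difference was −0.82 (edgeR, adjusted p = 0.002) and, with median-ratio factors, −0.08 and not called.

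Of all chromosome IV piRNA counts, the cluster took a larger share during spermatogenesis than during oogenesis. The share was 9.79, 9.77 and 9.31% in the WT spe. libraries and 6.5, 6.59 and 6.20% in the WT oog. libraries. It was 8.48 and 7.66% in *snpc-1.3(-)* spe. and 6.48, 6.80 and 7.40% in *snpc-1.3(2xtbs)* oog. The 2 WT stages did not overlap, *snpc-1.3(-)* lay between them, and *snpc-1.3(2xtbs)* overlapped WT oog. The differences in means were 3.19 percentage points for WT spe. against WT oog. (exact two-sided permutation test, p = 0.1), −1.55 for *snpc-1.3(-)* against WT spe. (p = 0.1) and 0.463 for *snpc-1.3(2xtbs)* against WT oog. (exact permutation p = 0.3). With these numbers of libraries no p below 0.1 can be reached. Over unique piRNAs alone the difference between the stages was 3.55 points, and that of *snpc-1.3(-)* changed sign, to 0.269.

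Plus-strand loci took 59.7 ± 0.82% of the member counts in WT spe., 55.9 ± 0.42% in WT oog. and 56.0 ± 1.9% in *snpc-1.3(2xtbs)* (SD, n = 3 each), and 60.9 ± 0.77% in *snpc-1.3(-)* (SD, n = 2). The difference between the stages was 3.75 points (exact permutation p = 0.1). Without piRNAs inside microRNA genes, which here means without 21ur-1430, it was 0.746 points (exact permutation p = 0.3). Without the 10 highest piRNAs it was 4.47 points and over unique loci 1.99, so the size of the strand difference depended on which high loci were counted. The corresponding share of the cluster still differed by 2.55 points between the stages (exact permutation p = 0.1). Counted by locus, the strands were alike: 28.9% of the tested plus-strand members and 28.6% of the minus-strand members were higher in WT spe. in the test described next, and 19.1% and 19.7% were lower.

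**Figure D1:**
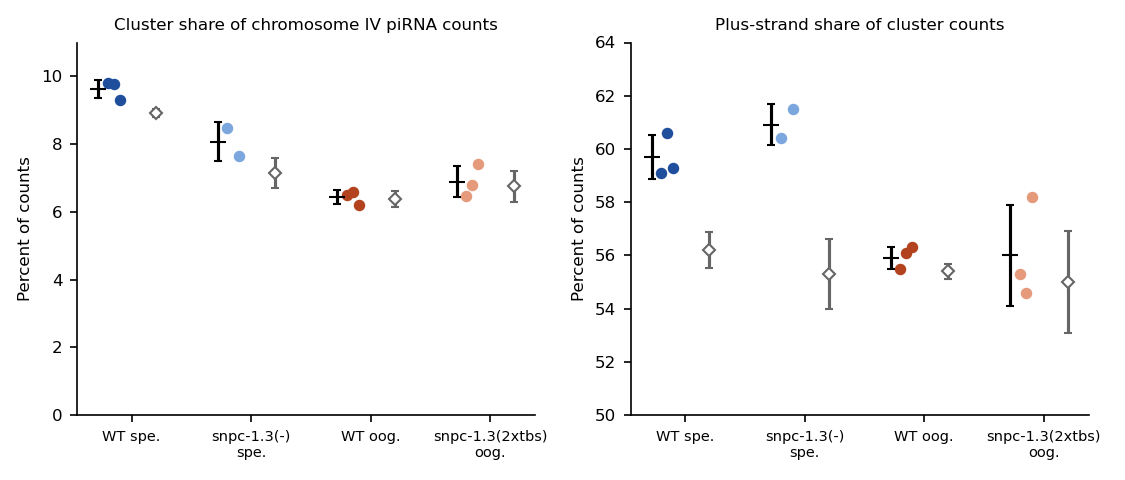
Share of chromosome IV piRNA counts that fell on the cluster (left, axis from 0) and share of cluster counts on plus-strand piRNAs (right, axis cut to 50 to 64%), in percent, by group. Dots are libraries, black bars the group mean ± SD, and open diamonds the mean ± SD without piRNAs inside microRNA genes. The WT spe. and WT oog. libraries are apart in both panels, and on the right the diamonds lie within 55 to 56.2% in every group.

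For single loci, the counts of 13982 piRNAs of chromosome IV, all those detected in at least 1 library and 2581 of them members, were tested with edgeR's quasi-likelihood test. A locus was called at an adjusted p of at most 0.05 (Benjamini-Hochberg over all of them) and a log2 fold change of at least 0.26 in size. Only 1307 members passed edgeR's filter on low counts, which was left off in this test. Comparisons 1 (WT spe. against WT oog.) and 2 (*snpc-1.3(-)* spe. against WT spe.) share the WT spe. libraries, and 1 and 3 (*snpc-1.3(2xtbs)* oog. against WT oog.) the WT oog. libraries.

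During spermatogenesis 743 members (28.8% of those tested) were higher than in WT oog., against 25.5% of all piRNAs tested, and 500 (19.4%) were lower, against 30.6%. The cluster thus held more loci raised in WT spe. and fewer raised in WT oog. than chromosome IV as a whole. Over the 883 members with at least 10 CPM the percentages were 45.1% higher and 41.2% lower, against 35.2% and 53.3% of 5293 such loci in the rest of the chromosome, and the median log2 fold change was 0.044 against −0.86. The split depends on the scaling. The median log2 fold change of all piRNAs tested was −0.36 with TMM, −1.25 with miRNA totals as the scale and 0.093 with DESeq2's median-ratio size factors. The members higher and lower were 476 and 702 with miRNA totals, 928 and 271 with median-ratio factors and 825 and 207 in DESeq2's own test, and over unique loci 385 and 298. Of all piRNAs tested, 2222 were higher and 5408 lower with miRNA totals, and 4472 and 2815 with median-ratio factors. DESeq2's own test gave 4060 and 2308 for all, and unique loci 1594 and 2002. The median log2 fold change of members lay above that of all by 0.588 with TMM, 1.03 with miRNA totals and 0.8 with median-ratio factors.

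21ur-6053, an intergenic locus with first base C, was the highest member of its class. Its WT spe. libraries were at 1960, 2840 and 2290 CPM and its WT oog. libraries at 191, 223 and 290 CPM, a log2 fold change of 3.33 (SE 0.26, adjusted p = 3.5e-35). It was at 94.6 and 98.3 CPM in *snpc-1.3(-)*, below every WT spe. library, with a log2 fold change of −4.61 (SE 0.34, adjusted p = 3.6e-39). In *snpc-1.3(2xtbs)* it was at 1240, 696 and 382 CPM, each above the WT oog. libraries, with a log2 fold change of 1.73 (SE 0.25, adjusted p = 4.6e-10). Its groups were apart in all 3 comparisons.

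The largest stage differences toward WT spe. were sought among called, unambiguous loci of at least 10 CPM whose groups did not overlap. The same conditions, taken in the comparison at hand, apply to the largest changes named below. 21ur-4001, 21ur-10451 and 21ur-6779 had the largest differences, all intergenic and on the plus strand. 21ur-4001 was at 57.8, 57 and 82.9 CPM in WT spe. but 4.48, 5.36 and 2.03 CPM in WT oog. (log2 fold change 3.96, SE 0.38, adjusted p = 1.8e-24). 21ur-10451, which has no exact core in its upstream 60 nt, was at 32.8, 22.4 and 31.6 CPM and at 1.99, 2.23 and 1.35 CPM (3.84). 21ur-6779 was at 64.1, 54.2 and 61.8 CPM and at 3.98, 3.57 and 5.41 CPM (3.79). That every WT spe. library of these loci was above every WT oog. library follows from this choice.

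Toward WT oog. the largest differences among loci chosen likewise were those of 21ur-6508, 21ur-10462 and 21ur-8114, all intergenic and on the minus strand. 21ur-8114, with no exact core, was at 7.81, 8.40 and 10.5 CPM in WT spe. but 66.1, 60.7 and 57.5 CPM in WT oog. (log2 fold change −2.78, SE 0.35, adjusted p = 2.3e-14). 21ur-10462, with first base C, was at 10.9, 5.60 and 4.52 CPM and at 52.2, 54.9 and 38.5 CPM (−2.83). 21ur-6508, with first base A, had 1, 7 and 0 counts in WT spe. and 78, 67 and 34 in WT oog. (−3.19), and without WT spe. replicate 2 its log2 fold change was −5.17. The groups were apart for each by that choice. 21ur-1430 was higher in WT spe. too, at 6150, 8490 and 4000 CPM against 511, 572 and 1520 CPM (2.84, adjusted p = 3.1e-23), with the reads of *mir-790* in both.

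Loss of *snpc-1.3* was asked for its effect on piRNAs during spermatogenesis. In *snpc-1.3(-)* spe. 658 members (25.5%) were lower than in WT spe., against 23.7% of all piRNAs tested, and 464 (18.0%) were higher, against 25.6%. The members at 0 in a whole group numbered 914 in *snpc-1.3(-)*, 399 in WT spe., 234 in WT oog. and 209 in *snpc-1.3(2xtbs)*, and 39 of the 914 had a mean of at least 10 CPM over all libraries, while no member at 0 in another group did. The mutant has 2 libraries and the other groups 3, so fewer counts stand behind its zeros. Higher and lower calls were 251 and 766 with median-ratio factors, 193 and 729 with miRNA totals and 196 and 696 in DESeq2's test, and 221 were higher in a fit of these groups alone. For all piRNAs tested, median-ratio factors gave 2317 and 3973, miRNA totals 1961 and 3779 and DESeq2's test 1979 and 3601. Lower members thus outnumbered higher ones under each scaling, and the number of higher ones depended on it. With TMM, 372 members of at least 10 CPM (42.1%) were higher and 378 (42.8%) lower, with a median log2 fold change of 0.20. In the rest of the chromosome 49.6% and 34.1% of such loci were. Members under 10 CPM had 92 higher and 280 lower, so with TMM the excess of lower calls lay mostly among these low members.

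Among called, unambiguous loci of at least 10 CPM with groups apart, 21ur-8654, 21ur-7352 and 21ur-9926 had the largest decreases, to 0 counts in both mutant libraries. 21ur-8654 was at 76.6, 134 and 88.9 CPM in WT spe. but 11.9, 9.38 and 14.9 CPM in WT oog. With a floor of 3 counts per library it was at least 21.3-fold lower in the mutant than in WT spe. (adjusted p = 7.9e-26). 21ur-7352, with first base C, was at 87.5, 92.5 and 102 CPM in WT spe. and at least 20.1-fold lower in the mutant (adjusted p = 1.4e-24). 21ur-9926, with first base C, was at 48.4, 53.2 and 48.2 CPM and at least 10.7-fold lower (adjusted p = 1.9e-15). In the stage comparison all 3 were also higher in WT spe., by 3.08, 3.05 and 2.92 on the log2 scale.

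Among loci chosen by the same conditions, 21ur-3329, 21ur-4042 and 21ur-11466 had the largest increases in the mutant. 21ur-3329, with first base T, was at 1.56, 3.74 and 10.5 CPM in WT spe. and 35.5 and 38.2 CPM in *snpc-1.3(-)* (log2 fold change 2.84, SE 0.49, adjusted p = 3.7e-08). 21ur-4042, with no exact core, was at 17, 11.2 and 9.04 CPM and at 65 and 84.5 CPM (2.61). 21ur-11466, with first base C, was at 1.56, 8.40 and 3.01 CPM and at 29.6 and 31.2 CPM (2.61). Their mutant libraries were above all WT spe. libraries, as this choice required. 21ur-526 and 21ur-5904, the highest loci with first base A and T, were higher in the mutant by 1.79 (adjusted p = 1.1e-10) and 1.66 (1.4e-08). 21ur-526 was at 231, 423 and 240 CPM in WT spe., 865 and 1200 CPM in *snpc-1.3(-)* and 557, 613 and 854 CPM in WT oog., so its mutant libraries overlapped none of WT spe. and stood above those of WT oog. 21ur-1430 was at 10700 and 10800 CPM in the mutant (0.79, adjusted p = 0.013), a call lost without WT spe. replicate 3 (0.56) or either mutant library (0.79 and 0.72) and with median-ratio factors (0.14).

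*snpc-1.3(2xtbs)* was compared with WT oog. to ask what the loss of the TRA-1 sites did to piRNAs in adults. Here 326 members (12.6%) were higher, against 11.3% of all piRNAs tested, and 39 (1.51%) were lower, against 4.47%. Of the members with at least 10 CPM, 30.8% were higher and 3.74% lower, against 21.6% and 9.39% in the rest of the chromosome. With miRNA totals the members higher and lower were 87 and 214, the reverse order, since the median of all piRNAs tested was then −0.49 in place of 0.0. With median-ratio factors they were 349 and 30 and in DESeq2's test 267 and 14. For all piRNAs tested, miRNA totals gave 459 and 2256, median-ratio factors 1738 and 523 and DESeq2's test 1370 and 301. The number of members lower rested on single libraries: it was 17, 8 and 62 without *snpc-1.3(2xtbs)* replicate 1, 2 and 3, and 8 and 10 without WT oog. replicate 1 and 2.

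Among called, unambiguous loci of at least 10 CPM with groups apart, 21ur-7761, 21ur-7400 and 21ur-8806 rose most. 21ur-7761, which overlaps an exon of *C17H12.11* on the same strand in the reference annotation but not that gene's interval in the count table, was at 4.97, 2.23 and 6.76 CPM in WT oog. and 24.3, 23.8 and 19.9 CPM in *snpc-1.3(2xtbs)* (log2 fold change 2.33, SE 0.38, adjusted p = 8.1e-08). In WT spe. it was at 42.2, 43.9 and 19.6 CPM and in *snpc-1.3(-)* it had 0 and 1 counts, a ratio to WT spe. of 0.020 (95% exact counting interval 0.00050 to 0.11). By the choice of loci its *snpc-1.3(2xtbs)* libraries were above all WT oog. libraries. But for 1 library of WT spe., they were also below WT spe. 21ur-7400 was at 2.98, 3.13 and 2.70 CPM in WT oog. and 12.6, 21.2 and 10.6 CPM in *snpc-1.3(2xtbs)* (2.29), and 21ur-8806 at 1.49, 2.23 and 7.44 CPM and at 18.6, 13.8 and 10.6 CPM (2.07).

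Among those of the 39 lower members that met the same conditions, 21ur-8630, 21ur-11105 and 21ur-5209 had the largest decreases. None of these named loci has an exact core. 21ur-8630 was at 22.4, 22.3 and 28.4 CPM in WT oog. and 11.4, 10.6 and 6.62 CPM in *snpc-1.3(2xtbs)* (log2 fold change −1.31, SE 0.35, adjusted p = 0.0021). 21ur-11105 was at 27.8, 47.8 and 37.9 CPM and at 6.08, 20.1 and 23.8 CPM (−1.24), and at −0.79, no longer called, without *snpc-1.3(2xtbs)* replicate 1. 21ur-5209 was at 27.4, 22.3 and 22.3 CPM and at 10.9, 10.1 and 11.9 CPM (−1.13), a call lost without *snpc-1.3(2xtbs)* replicate 2 or WT oog. replicate 1. The decrease of 21ur-5721 (−0.73, adjusted p = 0.034) was −0.21 and −0.58 without *snpc-1.3(2xtbs)* replicate 1 and 2 and −0.59 and −0.67 without WT oog. replicate 1 and 2, none of them called. It was −1.88 without *snpc-1.3(2xtbs)* replicate 3, and its groups overlap.

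**Figure D2:**
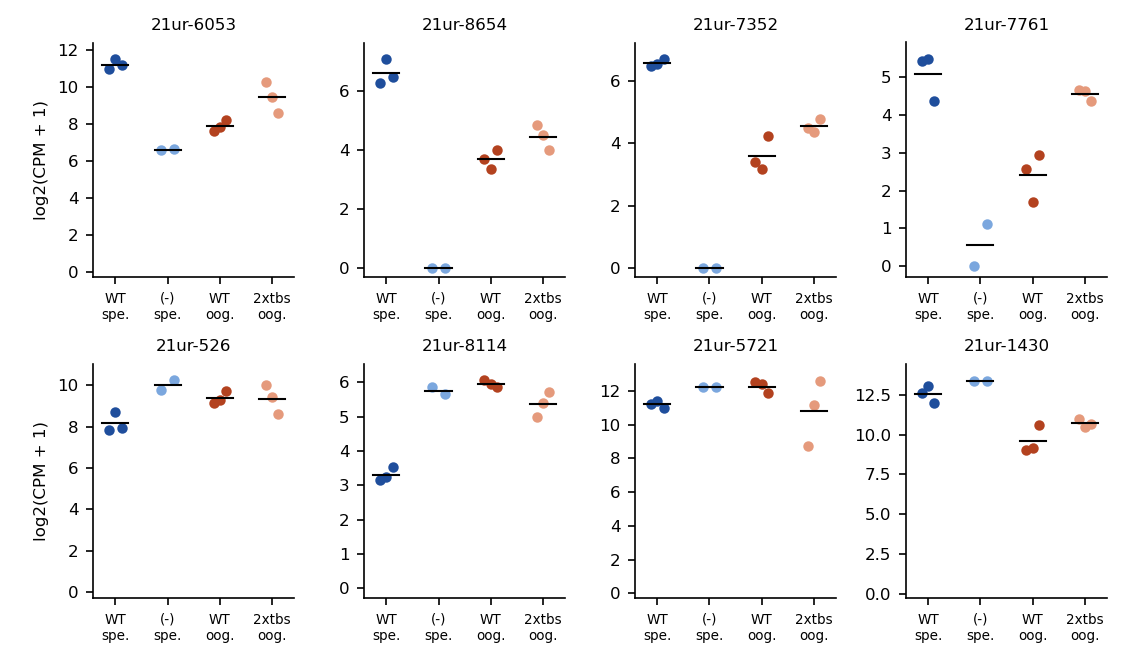
Levels of 8 members in every library as log2(CPM + 1), where CPM is relative to chromosome IV piRNA counts after TMM scaling, by group; (-) is snpc-1.3(-) and 2xtbs is snpc-1.3(2xtbs). Dots are libraries and black lines group means of the log values. 21ur-6053, 21ur-8654, 21ur-7352 and 21ur-7761 are highest in WT spe. and lowest in snpc-1.3(-), 21ur-526 and 21ur-8114 are lowest in WT spe., 21ur-5721 is spread in snpc-1.3(2xtbs), and 21ur-1430 shares its reads with mir-790.

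The first base of the motif divided the members into classes that differed in all 3 comparisons, while percentages by strand and by position relative to genes were close. Of the 1370 tested members with first base C, 549 (40.1%) were higher and 97 (7.08%) lower in WT spe. than in WT oog., and 510 (37.2%) were lower and 93 (6.79%) higher in *snpc-1.3(-)* than in WT spe. In *snpc-1.3(2xtbs)* 233 (17.0%) were higher and 4 (0.292%) lower than in WT oog. Of all tested chromosome IV piRNAs with first base C, 39.6% were higher and 14.8% lower between the stages. In *snpc-1.3(-)* 37.4% of them were lower and 11.3% higher, and in *snpc-1.3(2xtbs)* 17.8% were higher and 2.64% lower. The members' shares of 40.1%, 37.2% and 17.0% were thus near those of the whole chromosome, and fewer members were called the other way. The other 1211 tested members went the other way between the stages, with 194 higher and 403 lower, and in the mutant, with 371 higher and 148 lower. In *snpc-1.3(2xtbs)* 93 of them were higher and 35 lower.

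Among the other classes, first base A had 16.1% higher and 37.1% lower in WT spe., first base T 17.6% and 36.1%, first base G 23.3% and 32.6% and loci without an exact core 15.4% and 31.7%. The class with first base C had more higher than lower calls between the stages, and more lower than higher in the mutant, under each scaling. With miRNA totals these counts were 357 and 183 between the stages, 559 lower and 31 higher in the mutant, and 70 higher and 50 lower in *snpc-1.3(2xtbs)*. For the other members the direction was not stable. Between the stages they had 214 higher and 180 lower in DESeq2's test, and in the mutant 162 and 170 with miRNA totals. In *snpc-1.3(2xtbs)* they had 17 higher and 164 lower with miRNA totals.

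With each library left out in turn, members with first base C had 499 to 531 higher in WT spe., 378 to 492 lower in *snpc-1.3(-)* and 164 to 247 higher in *snpc-1.3(2xtbs)*. Among members with at least 10 CPM the 455 with first base C had medians of 2.06, −2.25 and 0.81 on the log2 scale in the 3 comparisons, and the 115 with first base A had −1.25, 1.37 and −0.080. The 2545 such loci with first base C in the rest of the chromosome had medians of 1.17, −1.21 and 0.37, nearer to 0 in each. The share of first base C among loci with the core was 76.6% in the cluster and 73.3% in the rest, so the classes were of like size while the medians were not. By position relative to genes, 29.0% of tested intergenic and 28.3% of intronic members were higher in WT spe., and 26.1% and 25.4% were lower in *snpc-1.3(-)*.

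**Figure D3:**
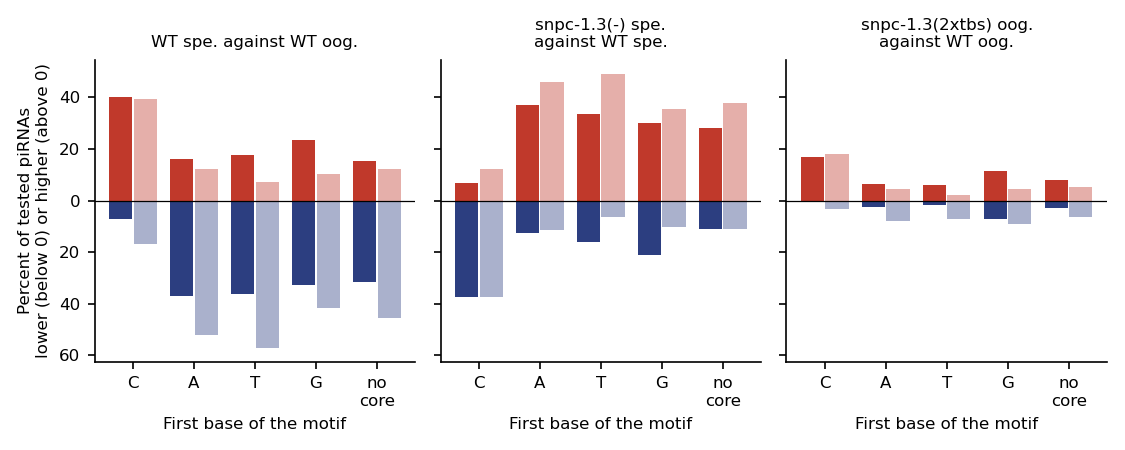
Percent of tested piRNAs called higher (red, above 0) or lower (blue, below 0) in each comparison, by the first base of the motif; no core means no exact GTTTCA within 60 nt upstream. Full colour shows the cluster and pale colour the rest of chromosome IV. Of members with first base C, 40.1% are higher in WT spe., 37.2% lower in snpc-1.3(-) and 17.0% higher in snpc-1.3(2xtbs). In the rest these are 39.5%, 37.5% and 18.0%. The share lower in WT spe. is 7.08% against 16.8% in the rest.

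Along the chromosome, counts were summed in windows of 100 kb for each strand and fitted with edgeR over the 194 windows of chromosome IV with at least 10 counts, 46 of them in the cluster. In WT spe. against WT oog. 26 of the 46 were higher, against 37.1% of all windows (56.5% of those of the cluster), and 5 were lower, against 31.4%. In *snpc-1.3(-)* 10 were higher, against 31.4%, and 22 lower, against 28.9%, and without mutant replicate 1 the number higher was 6. In *snpc-1.3(2xtbs)* 11 were higher, against 11.9%, and 0 lower, against 4.64%. That number higher was 7 and 3 without *snpc-1.3(2xtbs)* replicate 1 and 2, and 4, 3 and 7 without WT oog. replicate 1, 2 and 3. With miRNA totals 9 windows were higher and 22 lower between the stages, 0 higher and 27 lower in *snpc-1.3(-)*, and 1 higher and 9 lower in *snpc-1.3(2xtbs)*, so the direction turned in the first and the last.

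The right end of the cluster, 6.5 to 7.0 Mb, stood out (it was singled out after its values were seen). It holds 227 members, 95 on the plus strand and 132 on the minus strand, with a median level of 1.20 CPM against 2.81 CPM in the rest of the cluster on either side of 5.8 Mb. First base C made up 64.3% of them, against 51.2% from 4.5 to 5.8 Mb and 51.2% from 5.8 to 6.5 Mb. The end took 0.415, 0.413 and 0.431% of chromosome IV piRNA counts in the WT spe. libraries and 0.119, 0.117 and 0.099% in WT oog. It took 0.117 and 0.100% in *snpc-1.3(-)*, and 0.125, 0.159 and 0.187% in *snpc-1.3(2xtbs)*. Every WT spe. library was thus above all others, and every *snpc-1.3(2xtbs)* library above those of WT oog.

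Of its 10 windows by strand, 9 were higher in WT spe. (37.1% of all windows were), 8 lower in *snpc-1.3(-)* (28.9%) and 6 higher in *snpc-1.3(2xtbs)* (11.9%). None of the 10 was called the other way. With each library left out, 9 were higher in WT spe. each time, and 7 were lower in the mutant without its replicate 2 and 8 otherwise. For *snpc-1.3(2xtbs)* the number was 3, 2 and 5 without its replicate 1, 2 and 3, and 3, 2 and 3 without WT oog. replicate 1, 2 and 3. With miRNA totals 7 were higher and 1 lower between the stages, 9 lower in *snpc-1.3(-)*, and 1 higher in *snpc-1.3(2xtbs)*. Over unique loci 9 were higher and 1 lower between the stages, 8 lower in *snpc-1.3(-)*, and 3 higher in *snpc-1.3(2xtbs)*.

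The largest change was on the plus strand from 6.6 to 6.7 Mb, where 15 members, 10 with first base C and among them 21ur-7352, had a sum of 369 to 552 CPM in WT spe., 51.8 to 69 CPM in WT oog., 19.7 and 20.8 CPM in *snpc-1.3(-)* and 111 to 173 CPM in *snpc-1.3(2xtbs)*. The log2 fold changes were 3.13 (SE 0.17), −4.69 (SE 0.25) and 1.33 (SE 0.16), with adjusted p of 4.8e-08, 5.4e-08 and 0.0011. 21ur-8461 alone held 63.1% of this window's level, taken as CPM averaged over the 4 groups. From 6.5 to 6.6 Mb both strands were higher in WT spe. by 2.61. In *snpc-1.3(-)* they were lower, by −2.82 on the plus and −3.02 on the minus strand. No locus there held more than 37.4% of a window's level. The exception to the stage difference was the plus strand from 6.9 to 7.0 Mb, at −1.29 (SE 0.54, adjusted p = 0.052). There 21ur-13688 held 41.9% of the level.

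Elsewhere windows of both directions were found. Between the stages 12 were higher and 3 lower of 20 from 4.8 to 5.8 Mb, and 5 higher and 2 lower of 14 from 5.8 to 6.5 Mb. In *snpc-1.3(-)* 7 were higher and 10 lower of the former, and 3 higher and 4 lower of the latter. From 5.9 to 6.0 Mb both strands were lower in WT spe., by −0.86 on the plus and −0.67 on the minus strand (adjusted p = 3.6e-06 and 6.3e-06), and higher in *snpc-1.3(-)* by 0.91 and 0.82. With miRNA totals this stretch remained lower in WT spe., and its values in the mutant, 0.27 to 0.36, were not called. Over unique loci 1 of the strands was called between the stages and 1 in the mutant. On the plus strand from 6.1 to 6.2 Mb, where 21ur-6053 held 34.7% of the level, the 3 log2 fold changes were 1.70, −1.76 and 0.60. From 5.6 to 5.7 Mb the plus strand was higher in WT spe. (1.03) and the minus strand lower (−0.58), and in *snpc-1.3(-)* they went the opposite ways (−0.83 and 0.46). The plus strand from 5.5 to 5.6 Mb was at 1.91 between the stages, and 21ur-1430 made up 78.2% of its level. Without piRNAs inside microRNA genes this window was at 0.13 (adjusted p = 0.17). On the plus strand from 6.3 to 6.4 Mb, where 21ur-5721 made up 61.8% of the level, none of the 3 differences was called.

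**Figure D4:**
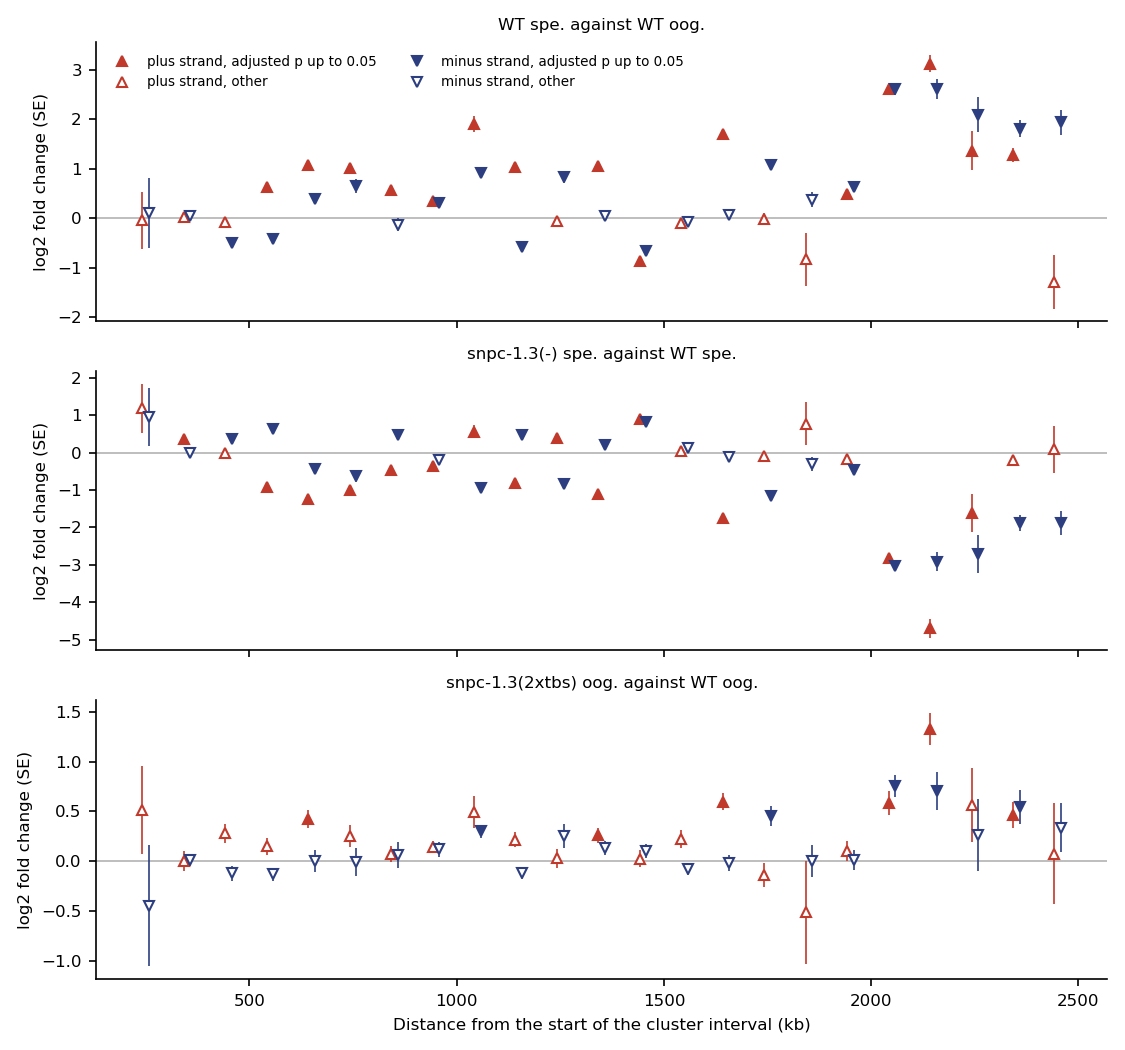
log2 fold change ± SE of counts summed in windows of 100 kb, by strand, against distance from the start of the cluster interval at 4.5 Mb, in the 3 comparisons, with a vertical scale for each. Upward red triangles are plus-strand and downward blue triangles minus-strand windows, filled where the adjusted p is at most 0.05. At the right end, from 2000 kb on, 9 of 10 windows are filled and above 0 in WT spe., 8 filled and below 0 in snpc-1.3(-) and 6 filled and above 0 in snpc-1.3(2xtbs).

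Neighbouring loci differed much among themselves. Among the 883 members with at least 10 CPM, 265 neighbouring pairs started within 1000 nt of each other. Between the stages 104 of these pairs were called in the same direction and 89 in opposite directions. As 45.1% of the 883 members were called higher and 41.2% lower, unrelated pairs would also often be called in opposite directions. Over pairs more than 100 and up to 1000 nt apart, Spearman's rho of their stage fold changes was 0.079 for 154 pairs on the same strand and 0.098 for 104 on opposite strands, and over 1000 nt it was 0.11 for 174 pairs and −0.0078 for 200. These values describe pairs that share libraries.

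ChIP-seq for the Flag tag at 48 hr, in worms from liquid culture, had 2 libraries for each of 3 strains: untagged N2, worms whose SNPC-1.3 carries the tag (*snpc-1.3::3xflag*), and tagged worms in which auxin had depleted SNPC-4 for 4 hr (*snpc-4::aid; Psun-1::TIR1*). The genotype label of the depleted strain lacks the Flag allele that its title gives. The authors deposited only bins of 1 kb whose IP lay above a background level, so the bins listed are selected. Of the 1188 bins that hold a member, *snpc-1.3::3xflag* files listed 92.6 and 92.0%, N2 files 32.1 and 24.0% and SNPC-4-depleted files 41.5 and 25.4%. The median log2 ratio of IP to input CPM over listed bins was 0.39 and 0.46 in *snpc-1.3::3xflag*, 0.028 and 0.052 in N2 and 0.039 and 0.057 after SNPC-4 depletion. Over the 80 member bins listed in all 6 files it was 0.46 and 0.57, 0.11 and 0.073, and 0.10 and 0.097. Both *snpc-1.3::3xflag* libraries with SNPC-4 intact were above the other 4, and with 2 libraries a group no test was made.

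In *snpc-1.3::3xflag* the median was higher where more piRNAs start: 0.47 and 0.55 in bins with 3 or more members, 0.35 and 0.40 with 1 or 2, and 0.24 and 0.22 in bins of the cluster with none. In the SNPC-4-depleted libraries the bins with 3 or more members were at 0.011 and 0.021, and those with none at 0.094 and 0.133. In N2 the bins with 3 or more were at 0.024 and 0.055, and those with none at 0.101 and 0.116. The bins with none thus had the higher signal without the tag. The right end of the cluster, where the decreases in *snpc-1.3(-)* were largest, was at 0.28 and 0.26, below 0.38 and 0.46 for bins from 4.5 to 5.8 Mb and 0.44 and 0.50 from 5.8 to 6.5 Mb. Its bins hold fewer piRNAs, and the part of that in the lower value was not tested. Bins of the larger cluster were at 0.91 and 1.09.

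**Figure D5:**
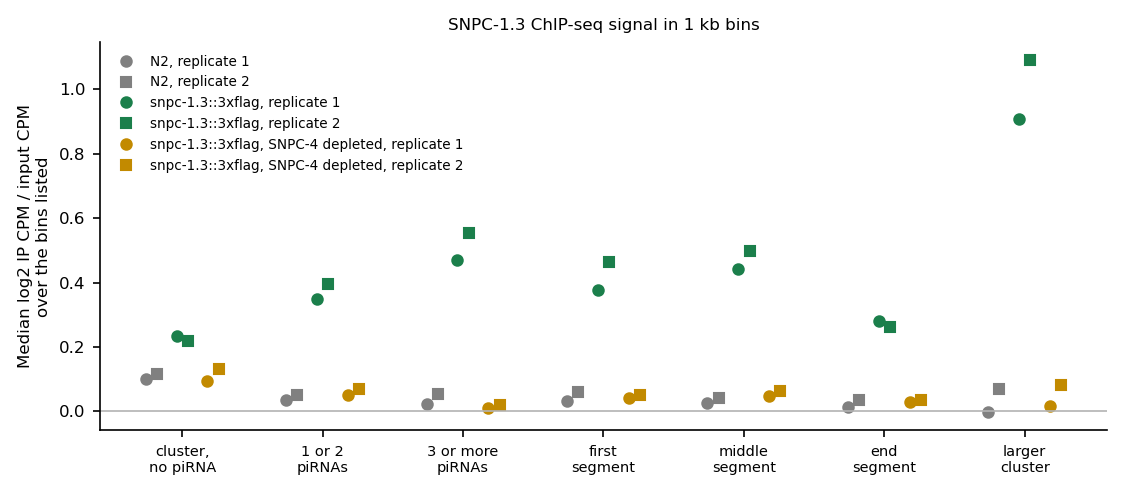
Median log2 ratio of IP to input CPM over the 1 kb bins each file lists, for bins of the cluster without a piRNA, with 1 or 2 and with 3 or more, for bins with members in the first (4.5 to 5.8 Mb), middle (5.8 to 6.5 Mb) and end (6.5 to 7.0 Mb) segment, and for piRNA bins of the larger cluster. Each point is a library, with circles for replicate 1 and squares for replicate 2. The green points of snpc-1.3::3xflag are above the others in each set, from 0.22 without a piRNA to 1.09 in the larger cluster.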

How the data were processed

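The authors size-selected small RNA, trimmed reads with Trimmomatic 0.39, aligned them to WBcel235 with Bowtie 1.1.1 and counted them with featureCounts (Subread 1.6.3, versions from the submitters' processing notes and the methods) at each feature a read overlapped. The deposited counts are whole reads per feature without normalization. Whether strand was used is not given in the sources used here. In 24 of 24 cases a non-coding feature overlapping a member on the same strand had at least the member's counts, and on the opposite strand in 1 of 6. For ChIP-seq, the CPM of each 1 kb bin were made by the authors with Bowtie2 2.3.4.2 alignments, reads extended and 1 added to each count. Their comparison columns, their normalized count table, their other count workflow and the TRA-1 peaks were not used.

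Counts of the 13982 chromosome IV piRNAs with any count entered 1 quasi-likelihood model of the 4 groups (edgeR 4.0.16, R 4.3.3) with TMM and no replicate block, and windows likewise with TMM over windows. The fit was run on simulated counts with 200 changed loci of at least 10 CPM in the *snpc-1.3(-)* group. These changes were balanced up and down, so the simulation does not test the scaling or loci of low level. The log2 fold change threshold is that of the methods. Reads carried no molecular identifiers, so counting intervals cover counting error only. Named loci are the 5 highest members, the 3 largest changes per comparison and direction (called, groups apart, at least 10 CPM, sequence once in the genome, no overlapping feature at the count table's own coordinates) and the highest such member of each first base. The study names no member. 21ur-8461, 21ur-13688 and *mir-790* were named after their values were seen. Members, lists and tests were chosen with earlier results of these data known. Gene positions and sequences come from the WBcel235 genome and annotation, which placed all 2816 members at the coordinates of the count table. Alternatives were other scalings, DESeq2 1.42.0, filterByExpr, unique loci, a replicate block, a threshold of 1, fits of the compared groups alone and leaving out libraries.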

Additional observations from a re-analysis of the deposited data

How the results depend on the processing

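Scaling and the restriction to unique loci both moved the counts. The cause of the scaling differences was not tested. With miRNA totals, members higher and lower were 476 and 702 between the stages, 193 higher in *snpc-1.3(-)* and 87 and 214 in *snpc-1.3(2xtbs)*, and windows were 9 and 22, 0 higher, and 1 and 9. With median-ratio factors 271 members were lower between the stages and 251 higher in the mutant. DESeq2's test gave 207, 196 and, for members lower in *snpc-1.3(2xtbs)*, 14. A fit of the compared groups alone gave 221 members higher in the mutant and 66 lower in *snpc-1.3(2xtbs)*, and a log2 threshold of 1 gave 13 for the latter. With unique loci only, fewer loci being tested, members higher and lower were 385 and 298, 282 and 322, and 173 and 25, and 6 windows were higher in *snpc-1.3(2xtbs)*. With each library left out, windows higher in *snpc-1.3(-)* ranged from 6 to 11, members lower in *snpc-1.3(2xtbs)* from 8 to 62, and its windows from 3 to 12 higher and 0 to 1 lower. The cluster share differed between the stages by 2.62 points without the 10 highest piRNAs, 3.55 over unique loci and 2.55 without piRNAs inside microRNA genes, and in the mutant by 0.269 over unique loci. The plus-strand share differed between the stages by 4.47 without the 10 highest piRNAs, 1.99 over unique loci and 0.746 without piRNAs inside microRNA genes. In the mutant it differed by −5.08 without the 10 highest piRNAs, 6.18 over unique loci and −0.827 without piRNAs inside microRNA genes. ChIP medians averaged over replicates were 0.516, 0.0898 and 0.100 in *snpc-1.3::3xflag*, N2 and SNPC-4-depleted libraries over bins listed in all files, and 0.427, 0.0398 and 0.0478 over each file's own bins. Replicate numbers did not pair the libraries (correlations of deviations from −0.454 to 0.117), and a replicate block gave 673 and 482, 438 and 616, and 291 and 27 members higher and lower. Of the tested members under 10 CPM, 20.3% were higher and 8.01% lower between the stages, against 45.1% and 41.2% of those at 10 CPM or more. How small a difference could be detected at each level was not measured.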
